A study of Homo sapiens with 6 samples.

Results

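Ligands and receptors of the interleukin-1 (IL-1) family were examined in RNA-seq data of OVCAR3, a long-established cell line from a human ovarian carcinoma, after knockdown of NUF2, a subunit of the kinetochore complex that links chromosomes to the spindle. The 10 genes IL1A, IL1B, IL1RN, IL18, IL33, IL36G, IL1R1, IL1R2, IL1RL1 and IL1RAP were taken by name from the 19973 genes of the deposited table, and each was found once. The cells carried either shNC, a control hairpin (genotype WT in the labels), or shNUF2, a hairpin against NUF2 (genotype NUF2 knockdown), delivered by transfection of a U6 plasmid with a puromycin cassette, and the study made stable OVCAR3 cells of both kinds, although its methods do not say whether these were the cells sequenced. There were 3 libraries per group. A single hairpin was used, and the sources used here do not say whether the cells were a clone or a pool, or whether the libraries of a group came from separate cultures, so that the errors below measure the spread between these libraries only.

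The 10 genes had higher normalized counts in the shNUF2 libraries than in the shNC libraries, by very different factors. IL1A and IL1B, the agonists that name the family, were 9.41-fold and 8.16-fold higher with shNUF2 in the fit of normalized counts. In bulk RNA a larger share of cells that express a gene and more RNA of it per cell cannot be told apart. IL33 and its receptor IL1RL1 were close to undetected with shNC, at 10 reads and 1 read in the 3 libraries together, and had 413 and 162 reads with shNUF2. The receptor subunits IL1R1 and IL1RAP were 2.11-fold and 2.42-fold higher, and IL18 differed least, at 1.24-fold. The antagonist IL1RN and the decoy receptor IL1R2 were also higher, from fewer than 10 reads per group with shNC.

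The IL-1 family is a set of cytokines by which epithelial and immune cells signal damage and infection. IL-1 alpha and IL-1 beta bind the receptor IL1R1, which then recruits IL1RAP, and the joined intracellular domains engage the adaptor MYD88 and kinases of the IRAK family, which leads to activation of NF-kB and MAP kinases. Signaling is limited by a soluble antagonist (IL1RN), which occupies the receptor without recruiting IL1RAP, and by a decoy receptor (IL1R2) that lacks the signaling domain. IL-33 signals through IL1RL1, also called ST2, and IL-36 gamma through IL1RL2, each again with IL1RAP, whereas IL-18 has its own receptor pair, IL18R1 and IL18RAP. IL-1 beta and IL-18 are made as precursors that caspase-1 cuts into active cytokines, while full-length IL-1 alpha and IL-33 are already active and act as alarm signals when cells are damaged.

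The total counts ranged from 13057534 to 16995452 reads per library. Genes with at least 1 read numbered 14582 to 14691 in the shNC libraries and 15435 to 15536 in the shNUF2 libraries. The bearing of this difference on members with few reads under shNC was not tested. NUF2 was lower in every shNUF2 library (281, 290 and 384 reads) than in every shNC library (903, 1096 and 1092 reads), a log2 fold change of -1.51 with a standard error of 0.08 (edgeR's quasi-likelihood test, adjusted p = 2.17e-15). Of 11 markers of ovarian carcinoma and epithelium, MSLN, KRT7, KRT8 and KRT18 were abundant, with at least 5059 reads per group, and PAX8 had 480 and 655 reads with shNC and shNUF2. MUC16 had 2304 and 1196 reads and EPCAM 159 and 225. Of this list KRT8 rose (log2 fold change 1.04, adjusted p = 3.22e-17 in the same test), and MSLN and MUC16 had log2 fold changes of -0.75 each, not past the fold threshold. Other markers were nearly absent, with 0 and 1 reads for WFDC2, 1 and 8 for WT1, 12 and 21 for KRT19, and 66 and 35 for CDH1, so that the labelled cell type is met by part of the list only. The cells are called OVCAR3 as labelled, and the identity of the line was not tested.

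Members were chosen by name, with their read counts and fold changes between the shNUF2 and shNC libraries already known. Their differences between the groups are therefore given as a description, with fold changes and standard errors from the fit over all genes but without p-values. Of the 10 members, 9 passed the filter on low counts, which asks for about 0.682 CPM (reads scaled to a common library size) in at least 3 libraries, and 4 of these (IL1RN, IL33, IL1R2 and IL1RL1) passed it through the shNUF2 libraries alone, so that a difference was built into their passing. IL36G did not pass. At thresholds that follow the study's limits of 1 and 0.05, read here as an absolute log2 fold change over 1 together with p under 0.05 before adjustment, 8 members were higher and 0 lower, where 9.41% of all 12874 genes tested were higher, 4.16% lower and 13.6% either. In normalized counts the shNUF2 libraries lay above every shNC library for all 10 members, as they did for 35.2% of all genes tested. Nothing is read from these shares for the members, since the same contrast was known when they were listed.

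**Figure D1:**
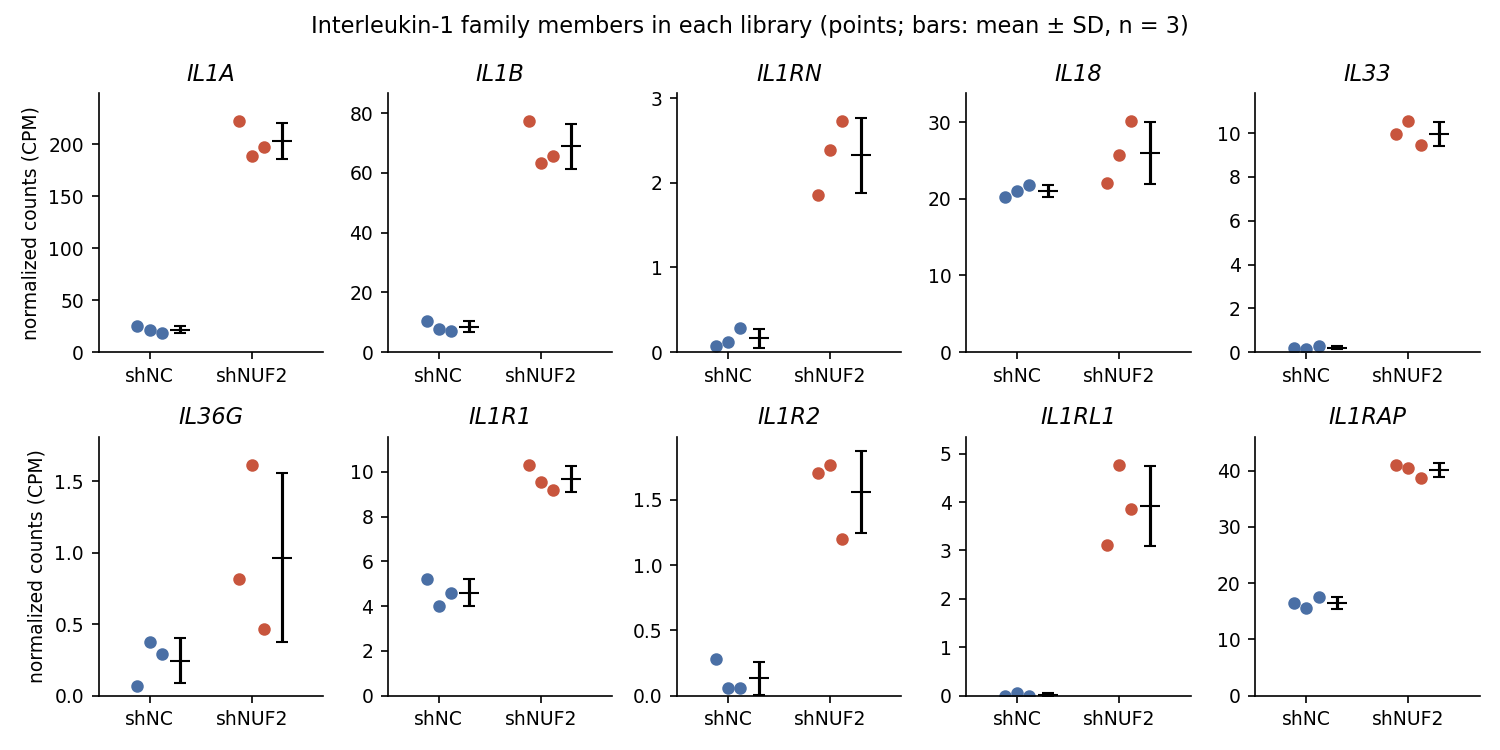
Normalized counts in CPM (linear axis from 0, a scale for each gene) of the 10 members in each library. Points are libraries, bars the mean ± SD of 3 libraries, and in each panel the shNUF2 points lie above the shNC points, narrowly for IL18 and IL36G.

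The members are spread over 4 chromosomes, but 7 of the 10 lie on chromosome 2, in a ligand cluster and a receptor cluster. In the positions of the table (GRCh38), the ligand cluster runs from IL1A (chr2:112773925-112784493, minus strand) and IL1B (chr2:112829751-112836816, minus strand) through IL36G (chr2:112973203-112985658, plus strand) to IL1RN (chr2:113107214-113134016, plus strand) and spans 360 kb. The receptor cluster holds IL1R2 (chr2:101991960-102028544), IL1R1 (chr2:102064544-102179874) and IL1RL1 (chr2:102311502-102352037), all on the plus strand. IL33 lies at chr9:6215786-6257983, IL18 at chr11:112143253-112164096 on the minus strand, and IL1RAP at chr3:190514051-190659750. Reads were summed over whole genes, so that the isoforms of a gene cannot be told apart: GENCODE release 29 lists 5 coding transcripts of IL1RN, 5 of IL1RL1 and 12 of IL1RAP, genes known for secreted as well as intracellular or membrane-bound forms. IL1RL1 overlaps IL18R1 on the same strand, but the genes share only 95 exonic bases, which is 1.65% of the exonic bases of IL1RL1. IL18, IL1R1 and IL36G each overlap a gene or pseudogene on the opposite strand, IL1RAP overlaps a pseudogene and noncoding RNA genes on its own strand, and whether reads were counted by strand is not given in the sources used here.

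Promoter sequences from RefSeq (GRCh38.p14, from 250 bases before a transcript start to 50 after it) were found for 9 of the 10 members in 18 windows; IL18 has no entry. The AP-1 motif TGANTCA, searched on both strands, was found in the windows of 3 members, IL1A, IL1RN and IL1RL1, and in 7.71% of all 35116 windows (9.37% of gene symbols). These sites are shown because IL1A is the most abundant member and carries a pair of them, with the motif in capitals and 10 bases on each side.
IL1A, chr2:112784489-112784515, minus strand: cgaagaagacTGACTCAggcttaagct
IL1A, chr2:112784439-112784465, minus strand: cattggcgttTGAGTCAgcaaaggtat
IL1RN, chr2:113117738-113117764, plus strand: tctgctagccTGAGTCAccctcctgga
IL1RL1, chr2:102337056-102337082, plus strand: taggaggaaaTGATTCAattatttcct
Counted to the first base of the motif, the IL1A sites begin at positions -105 and -55 from one RefSeq start of the gene and at -12 and 39 from the other, the IL1RN site begins at -223 and the IL1RL1 site at -191. The NF-kB consensus motif was found in 0 of the 18 windows of the members and in 5.91% of all windows, which says only that this consensus is not within these short windows.

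A TATA box (TATAAA, on the strand of the gene) was sought with its first base between positions -35 and -25 from a start. This range was chosen after the matches were seen. Such a box was found for IL1R2, IL1RL1 and IL1RN of the 9 members and in 2.75% of gene symbols (2.17% of all windows). Anywhere in the windows and on either strand, TATAAA was found for 5 of the 9 members and in 14.0% of gene symbols. The sites are shown because these are 3 of the 4 members with 10 or fewer reads over all shNC libraries.
IL1R2, chr2:101991920-101991945, plus strand: cccaagagggTATAAAtccctgcttt
IL1RL1, chr2:102311524-102311549, plus strand: ttagtaaagcTATAAAgctgtaagag
IL1RN, chr2:113127558-113127583, plus strand: actatttcttTATAAAccacaactct
Matches of these motifs are descriptions of the sequence, and no binding was measured.

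IL1A, whose product can act as an alarm signal without processing, was counted with 363, 339 and 315 reads under shNC, against 2992, 2454 and 2963 under shNUF2. After normalization this was 21.7 ± 3.64 CPM under shNC and 203 ± 17.3 CPM under shNUF2 (SD, n = 3 each). The lowest shNUF2 library, at 189 CPM, was far above the highest shNC library, at 25.5 CPM. The log2 fold change was 3.23 (standard error 0.08).
IL1B, the cytokine released after inflammasome activation, was counted with 150, 125 and 123 reads under shNC, against 1042, 825 and 989 under shNUF2. This corresponds to 8.51 ± 1.8 CPM and 68.9 ± 7.41 CPM (SD, n = 3 each). The groups did not overlap, at 10.6 CPM in the highest shNC library and 63.5 CPM in the lowest shNUF2 library, and the log2 fold change was 3.03 (standard error 0.11).

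IL33, a nuclear cytokine of barrier epithelium and endothelium, was counted with 3, 2 and 5 reads under shNC, against 134, 137 and 142 under shNUF2. The shNUF2 libraries were close to each other, at 9.97 ± 0.55 CPM (SD, n = 3), against 0.209 ± 0.083 CPM with shNC (SD, n = 3). The ratio of the summed normalized counts was 47.2 with a 95% interval of 25.4 to 99.1 (exact binomial, counting error only), and the log2 fold change was 5.51 (standard error 0.30).
IL18, an inducer of interferon gamma that epithelial cells produce constitutively, was counted with 288, 336 and 375 reads under shNC, against 297, 334 and 453 under shNUF2. After normalization it had 21 ± 0.77 CPM with shNC and 26 ± 4.05 CPM with shNUF2 (SD, n = 3 each), and the groups were separated only by the gap between 21.8 and 22 CPM. In FPKM the groups overlapped, since the lowest shNUF2 library (8.26) was below the highest shNC library (8.47). Its log2 fold change of 0.31 (standard error 0.10) did not reach the threshold.
IL36G, a cytokine of stratified epithelia, was counted with 1, 6 and 5 reads under shNC, against 11, 21 and 7 under shNUF2. The highest shNUF2 library was at 3 times the reads of the lowest. Without the filter on low counts its log2 fold change was 1.86 (standard error 0.68), and its ratio of 3.71 had an interval of 1.9 to 7.79 (exact binomial 95%, counting error only).

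IL1RN, the receptor antagonist, was counted with 1, 2 and 5 reads under shNC, against 25, 31 and 41 under shNUF2, or 0.162 ± 0.115 and 2.32 ± 0.439 CPM (SD, n = 3 each). The groups did not overlap, and the log2 fold change was 3.73 (standard error 0.49).
IL1R2, the decoy receptor, was counted with 4, 1 and 1 reads under shNC, against 23, 23 and 18 under shNUF2, or 0.134 ± 0.128 and 1.56 ± 0.314 CPM (SD, n = 3 each). The log2 fold change of 3.52 (standard error 0.57) rests on 6 reads in the shNC group and was 4.50 without shNC replicate 1, while that of IL1RN was 4.43 without shNC replicate 3. From these counts the ratio lay between 5.3 and 34.4 for IL1R2 and between 6.75 and 33 for IL1RN (exact binomial 95% intervals, counting error only).

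IL1R1, the signaling receptor of both IL-1 agonists, was counted with 74, 64 and 79 reads under shNC, against 139, 124 and 138 under shNUF2. It had 4.6 ± 0.6 CPM with shNC and 9.68 ± 0.581 CPM with shNUF2 (SD, n = 3 each), with each group in a narrow range. Its log2 fold change of 1.07 (standard error 0.17) lay at the threshold and was 0.98 without shNC replicate 2.
IL1RAP, the co-receptor shared by the IL-1, IL-33 and IL-36 receptors, was counted with 234, 248 and 303 reads under shNC, against 553, 526 and 581 under shNUF2. Its normalized counts of 16.5 ± 1.05 CPM and 40 ± 1.26 CPM (SD, n = 3 each) were among the least variable of the members, and its log2 fold change was 1.27 (standard error 0.09).
IL1RL1, the IL-33 receptor, was counted with 0, 1 and 0 reads under shNC, against 42, 62 and 58 under shNUF2, or 3.91 ± 0.829 CPM with shNUF2 (SD, n = 3). It was thus detected by a single read in the shNC group. The ratio of summed normalized counts was 185, with an interval of 32.7 to 7350 (exact binomial 95%, counting error only), so that its size is poorly fixed. The fitted log2 fold change was 7.05 (standard error 0.61), and 8.84 without shNC replicate 2, which leaves 0 reads under shNC, so that this value depends on the prior count.

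**Figure D2:**
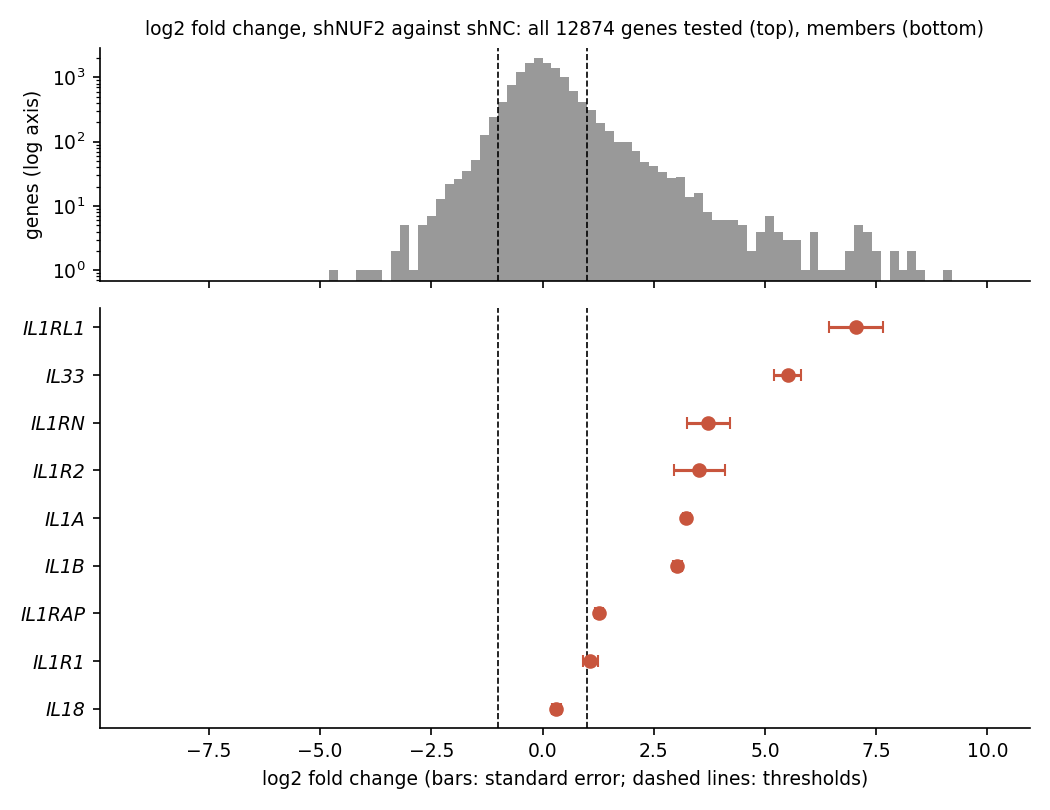
The upper panel is a histogram of the log2 fold change of all 12874 genes tested (gene numbers on a log axis), and the lower panel gives the 9 tested members with standard errors. The members run from 0.31 for IL18 to 7.05 for IL1RL1, and dashed lines mark the thresholds at 1 and -1.

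Levels of different genes were compared in FPKM, which corrects for gene length. In the shNC libraries the order of the medians was IL1A (10.7 FPKM), IL18 (8.21), IL1B (2.65), IL1RAP (1.43), IL1R1 (0.653), IL36G (0.214), IL33 (0.0653), IL1RN (0.0393), IL1R2 (0.0215) and IL1RL1 (0). The ranges of neighbours did not overlap from IL1A down to IL36G, whereas IL36G, IL33 and IL1RN each overlapped with the next gene in the order. Among the 16861 genes with a read in any library, the median of IL1A stood at percentile 75.0 with shNC, that of IL18 at percentile 69.2 and that of IL1B at percentile 47.2.
With shNUF2 the order was IL1A (96.5 FPKM), IL1B (21.6), IL18 (9.82), IL1RAP (3.47), IL33 (2.99), IL1R1 (1.33), IL1RN (0.733), IL1RL1 (0.663), IL36G (0.581) and IL1R2 (0.564). IL1B lay above IL18 in each of the 3 shNUF2 libraries and below it in each of the 3 shNC libraries. IL1A stood at percentile 98.1 and IL1B at percentile 87.7. The last 4 genes of the order overlapped with their neighbours. Among the receptor genes of the member list, the highest value in any library was 3.49 FPKM, for IL1RAP.

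**Figure D3:**
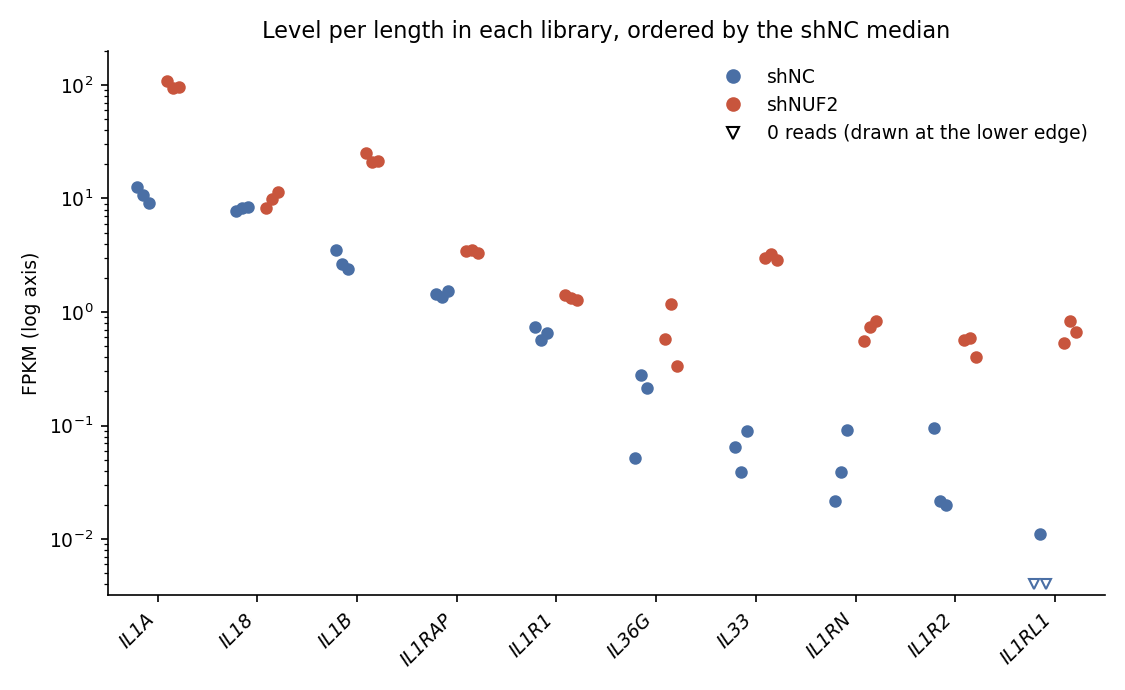
FPKM (log axis) of each member in each library, ordered by the median of the shNC libraries. Filled points are libraries, open triangles at the lower edge are libraries with 0 reads, and IL1B lies below IL18 with shNC and above it with shNUF2.

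The composition of the ligands differed accordingly. IL1A made up 44.9% to 52.6% of the summed FPKM of the 6 ligands, the antagonist included, in the shNC libraries and 72.2% to 74.1% in the shNUF2 libraries. The share of IL18 was 32.3% to 41.4% with shNC and 5.7% to 8.55% with shNUF2, although its own level differed little, and the sum of the ligands was 20.5 to 24.3 FPKM with shNC and 129 to 145 FPKM with shNUF2. IL1A exceeded IL1B by a factor of 3.61 to 4.05 with shNC and 4.28 to 4.47 with shNUF2.
The agonists exceeded the antagonist in every library. The FPKM of IL1A plus IL1B was 745, 340 and 128 times that of IL1RN in shNC replicates 1, 2 and 3, where IL1RN had 1, 2 and 5 reads, and 237, 156 and 142 times with shNUF2. The ranges of the groups overlapped. IL1R1 exceeded the decoy IL1R2 by a factor of 7.68, 26.6 and 32.8 with shNC, on 4, 1 and 1 reads of IL1R2, and by 2.51, 2.24 and 3.18 with shNUF2. Here the groups did not overlap, and the shNC values are imprecise for the few reads. IL1RAP exceeded its partner IL1R1 by 1.95 to 2.39 with shNC and 2.45 to 2.61 with shNUF2.

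Other genes near the clusters were examined in the same fit, since position had no part in choosing the members. Within 500 kb of the clusters, 18 genes of the table are not of the IL-1 family, 16 of these were tested, and 0 passed the thresholds (edgeR's quasi-likelihood test), where 13.6% of all genes tested did, so that 0 of 16 is near that share. They had log2 fold changes from -0.74 for CHCHD5 to 0.98 for MAP4K4. At an unadjusted p under 0.05 without the fold threshold, 10 of the 16 (62.5%) differed, 4 higher and 6 lower, against 70.2% of all genes tested, and DESeq2 called 0 past both thresholds. The genes next to the ligand cluster were CKAP2L, a spindle protein gene on the IL1A side (log2 fold change 0.28, standard error 0.06), and PSD4 on the IL1RN side (0.64, standard error 0.08). MAP4K4, a kinase gene beside the receptor cluster, came close to the threshold (standard error 0.05, adjusted p = 2.55e-15) and exceeded it without shNC replicate 3 (1.03), as FOXD4L1 did without shNC replicate 1 (1.48). Of the 15 family genes in the same windows 7 were tested, the 6 members described above and IL18R1, and their values are not set against those of the neighbours, since the members were listed with their fold changes known.

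**Figure D4:**
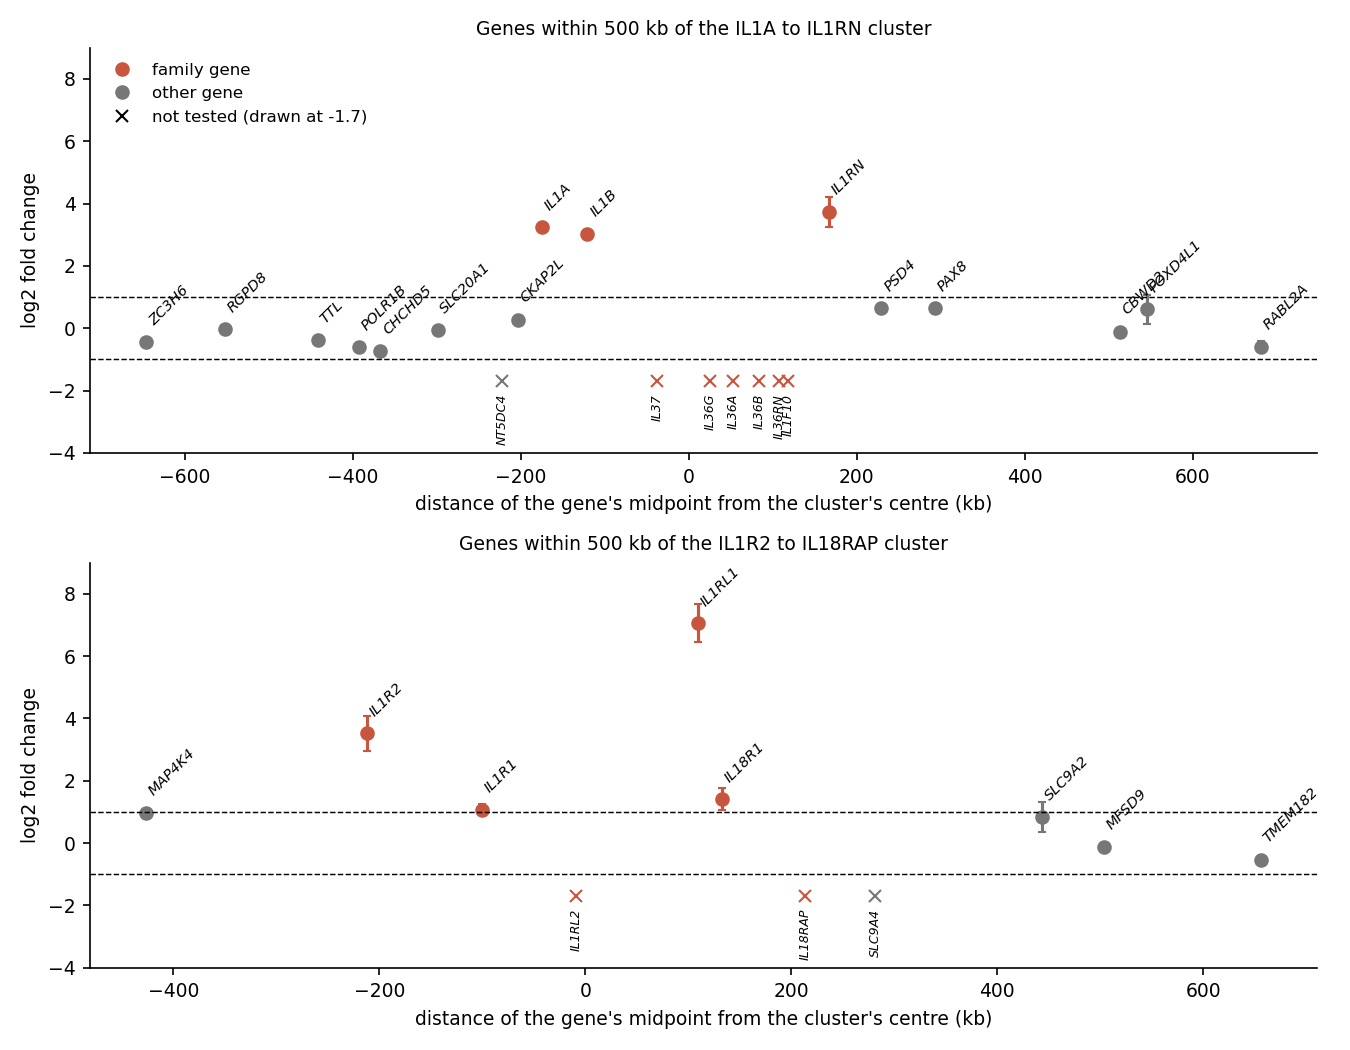
The log2 fold change with its standard error of each gene within 500 kb of the clusters, by distance of the gene's midpoint from the centre of the cluster in kb. Family genes (red) that were tested lie above the dashed line at 1, the other genes (gray) lie between -0.74 and 0.98, and crosses along the lower edge are genes with too few reads to test.

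Of the 12 family genes outside the member list, 3 passed the filter and were tested, and the other 9 had at most 32 reads in a group. Of the 3 tested, 1 (33.3%) rose and 0 fell, where 9.41% of all genes tested were higher and 4.16% lower. So few genes do not allow a comparison of shares. IL18R1, the ligand-binding chain of the IL-18 receptor, was counted with 15, 7 and 34 reads under shNC, against 41, 41 and 48 under shNUF2. It rose at a log2 fold change of 1.41 (standard error 0.35, edgeR's quasi-likelihood test, adjusted p = 0.000931), with all shNUF2 libraries above the shNC libraries after normalization. IL18RAP, the signaling partner it needs, had 1 read in each group. IL18BP, a secreted inhibitor of IL-18, and SIGIRR, a receptor that dampens IL-1 signaling, had log2 fold changes of 0.55 (standard error 0.12, adjusted p = 0.000356) and -0.27 (standard error 0.09, adjusted p = 0.00742) in the same test, neither past the fold threshold.
Of the untested genes, IL36RN, the antagonist of the IL-36 receptor, had 0 reads in each shNC library and 7, 10 and 15 reads with shNUF2. IL36B had 2 reads with shNC and 22 with shNUF2 in all, and IL36A 0 and 7. The IL-36 receptor gene IL1RL2 had 0 and 9 reads. IL37, an inhibitory cytokine gene of the same cluster, had 27 reads in each group. IL1F10, IL1RAPL1 and IL1RAPL2 had at most 7 reads in either group.

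The receptor-proximal signaling genes were expressed in both groups. Of 21 genes in this list all were tested, and 3 (14.3%) rose and 0 fell past the thresholds, a share near the 9.41% higher and 4.16% lower over all genes tested. At p under 0.05 without the fold threshold 12 (57.1%) were higher and 5 (23.8%) lower, against 35.0% and 35.2% of all genes tested, DESeq2 called 3 higher and 0 lower, and the median log2 fold change was 0.26, against -0.01 over all genes tested. The genes that rose were IRAK2, a kinase-like adaptor of the receptor complex (log2 fold change 1.37, standard error 0.06), and the ubiquitin ligases PELI1 (1.24, standard error 0.09) and PELI2 (1.03, standard error 0.13), with adjusted p of at most 1.81e-07 in edgeR's quasi-likelihood test. PELI2 was at the threshold and below it without shNC replicate 2 (0.93) or shNUF2 replicate 1 (1.00 after rounding). The adaptor MYD88 had a log2 fold change of 0.54 (standard error 0.07), TRAF6 of 0.81 (0.08), IRAK4 of -0.55 (0.09) and IRAK1 of 0.05 (0.04), none past the fold threshold.

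Of 27 genes for processing and release of the ligands, 21 were tested, and 3 (14.3%) rose and 0 fell, again near the 9.41% and 4.16% over all genes tested, with a median log2 fold change of 0.48. At p under 0.05 without the fold threshold 12 (57.1%) were higher and 3 (14.3%) lower, against 35.0% and 35.2% of all genes tested, and DESeq2 called 3 higher and 0 lower. The genes that rose were MEFV, which encodes pyrin (1.44, standard error 0.20), PRTN3, a serine protease gene (1.39, standard error 0.26), and AIM2, a DNA sensor of an inflammasome (1.23, standard error 0.21), with adjusted p of at most 3.35e-05 in edgeR's quasi-likelihood test. CASP1, whose product cuts the precursors of IL-1 beta and IL-18, was counted with 481, 574 and 604 reads under shNC, against 275, 317 and 284 under shNUF2. This gave a log2 fold change of -0.72 with a standard error of 0.09 (adjusted p = 1.3e-07 in the same test), not past the fold threshold. PYCARD, the adaptor between sensors and caspase-1, had 24 and 23 reads in the groups and NLRP3 4 and 38, and both were left out by the filter. CAPN2 and CAPN1, subunits of the calpains that cut IL-1 alpha, had log2 fold changes of 0.87 (standard error 0.04) and 0.71 (0.05).

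Of 24 genes known to be induced by IL-1, 21 were tested, 17 (81%) rose and 0 fell, where 9.41% of all genes tested rose, and their median log2 fold change was 2.2. The list was drawn up with results of these libraries known and is not independent evidence, and many of its genes also respond to TNF and other stimuli. The genes with the largest changes were CXCL8, a neutrophil chemokine (6.05, standard error 0.09), and MMP1, an interstitial collagenase (5.78, standard error 0.17). They were followed by CSF3, a granulocyte growth factor (5.33, standard error 0.55, on 4 reads with shNC), and CCL20, a lymphocyte chemokine (5.08, standard error 0.17). For CXCL8, MMP1 and CCL20 the adjusted p was at most 4.59e-19 in edgeR's quasi-likelihood test. CSF3 passed the filter through the shNUF2 libraries alone, so that its difference was built in and no p is given for it. Without CSF3, 16 of 20 genes rose. CXCL8 was counted with 96, 98 and 91 reads under shNC, against 5939, 5224 and 5380 under shNUF2. The tested genes that did not pass were NFKBIA (0.79, standard error 0.05), ZC3H12A (0.34, 0.05), LIF (0.32, 0.05) and LCN2 (-0.20, 0.30). BIRC3, an inhibitor of apoptosis, was at the threshold (1.03) and below it without shNC replicate 3 (0.97) or shNUF2 replicate 1 (0.98).
Of 10 regulators of mRNA decay, a list that includes the AU-rich element binding proteins acting on cytokine transcripts, all were tested and 0 passed the thresholds in edgeR's quasi-likelihood test or in DESeq2, which for 10 genes is near the 13.6% over all genes tested. At an unadjusted p under 0.05 without the fold threshold, 8 were higher and 2 lower in edgeR, where 35.0% and 35.2% of all genes tested were. Their log2 fold changes ranged from -0.52 for RC3H2 to 0.82 for ZFP36L1, with a median of 0.37.

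**Figure D5:**
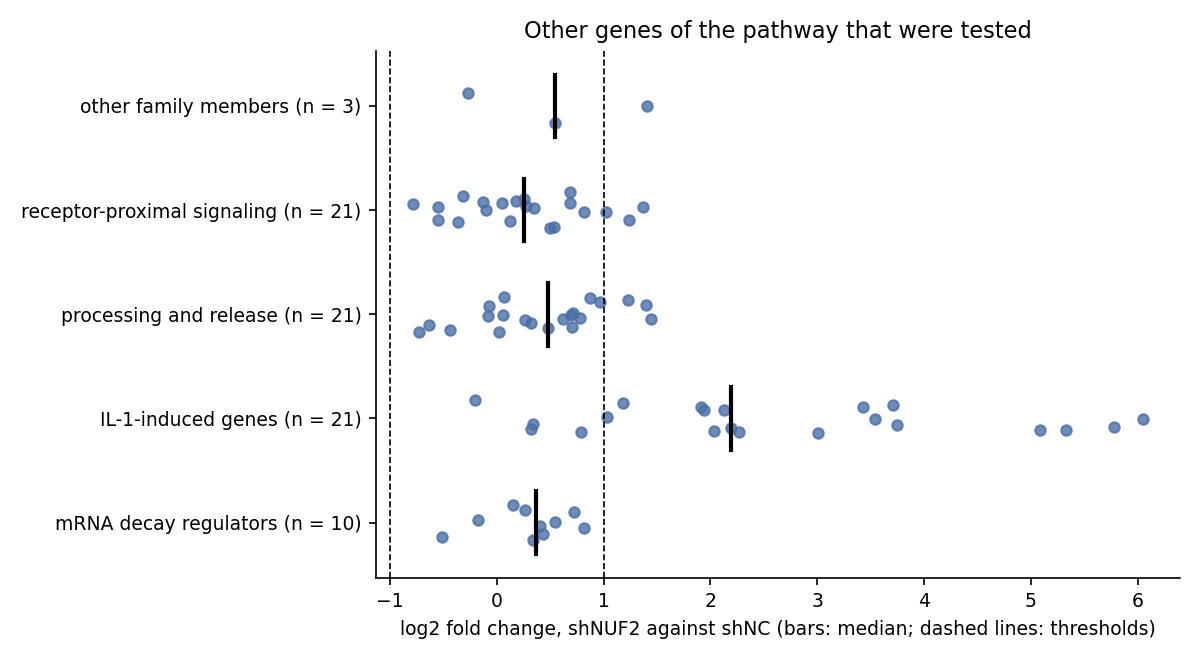
Log2 fold changes of the tested genes of the 5 family and pathway lists, with the median of each list as a bar and the thresholds as dashed lines. The genes known to be induced by IL-1 reach up to 6.05, while the other 4 lists drawn here (further family genes, signaling, processing and release, mRNA decay) stay below 1.5.

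The genes whose values over the 6 libraries were most like those of IL1A, by the root mean square distance of centred log2 CPM, were MDGA1 (0.12), TNFAIP3 (0.15) and AREG (0.16). Those most like IL1B were MDGA1 (0.10), SEMA7A (0.12) and TNFAIP3 (0.12). Their log2 fold changes were 3.08 for MDGA1, 3.01 for TNFAIP3, 3.42 for AREG and 3.02 for SEMA7A, and the likeness mainly states that the step between the groups was of equal height. TNFAIP3 encodes a feedback inhibitor of NF-kB and AREG a ligand of the EGF receptor.

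Markers of other cell types were not equal between the groups. The summed level of 11 myeloid markers was 2.44 to 2.95 CPM with shNC and 7.05 to 8.24 CPM with shNUF2. Of this sum, S100A9 alone had 1.06 ± 0.763 CPM with shNC and 4.27 ± 0.926 CPM with shNUF2 (SD, n = 3 each). The sum of 5 endothelial markers was 2.13 to 3.45 and 4.82 to 6.46 CPM, and that of 8 markers of squamous epithelium 0.872 to 1.55 and 3.69 to 4.45 CPM. The 8 fibroblast markers summed to 84 to 90.6 CPM with shNC and 69 to 76.5 CPM with shNUF2, most of it from the collagen gene COL1A1, at 81.7 ± 3.26 CPM with shNC and 62.4 ± 3.06 CPM with shNUF2 (SD, n = 3 each). Its partner COL1A2 had 3 and 4 reads in the groups. Of these lists, S100A9 (log2 fold change 2.06), DCN (1.22) and TP63 (1.56) rose (edgeR's quasi-likelihood test, adjusted p of at most 0.000718). CDH5, TEK and KRT14 passed the filter through the shNUF2 libraries alone, so that a difference was built in, and were counted with 6, 9 and 2 reads under shNC, against 61, 53 and 44 under shNUF2. Defining markers were at or near 0, with 0 reads in every library for CD3D, CD2, MS4A1 and PDGFRA, 1 read in each group for TYROBP, and 2 and 0 reads for CD68. The part of these genes in the levels of the members was not tested.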

How the data were processed

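RNA-seq was made from 3 shNC and 3 shNUF2 libraries with a stranded mRNA kit. The authors deposited read counts per gene and FPKM in one table; the processing notes name cutadapt, HISAT, HTSeq and genome build GRCh38.p13, and the annotation release, versions and strand setting of the counting are not given in the sources used here. The deposited FPKM equal counts over gene length and library total within a relative deviation of 2.71e-07. Counts were filtered (filterByExpr), scaled by TMM and tested with edgeR 4.0.16 (glmQLFit, glmQLFTest) in R 4.3.3, and p-values were adjusted by Benjamini-Hochberg over 12874 genes. A gene was called at an absolute log2 fold change over 1 together with p under 0.05 before adjustment. The biological coefficient of variation was 4.93%. Single-value exact permutation tests were not used, since 3 against 3 libraries cannot go below p = 0.1. The scripts were tested on simulated data.

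Members and lists were chosen with earlier results of these data known. All members were described. From each other list, up to 4 genes past the thresholds with the largest change and an average of at least 0 log2 CPM were named, together with tested family genes, neighbours past the thresholds and the 3 genes most like IL1A and IL1B. Other genes were named for their role after their values were seen. Alternatives were other size factors, other filters, DESeq2 1.42.0, limma 3.58.1 on log2 of FPKM, a replicate block and each library left out. Promoters came from RefSeq (GRCh38.p14), and intervals cover counting error only. The result of 1 marker list is not reported here.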

Additional observations from a re-analysis of the deposited data

How the results depend on the processing

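NUF2 stayed lower under each alternative, and the 9 tested members kept their direction under each alternative in which they were tested, which for IL1RN, IL33, IL1R2 and IL1RL1 leaves out the filter of 1 CPM in every library. IL36G was tested in 5 alternatives, with no filter and without shNC replicate 1, 2 or 3 or shNUF2 replicate 3, and was past the upper threshold in each, at 1.49 to 2.27. Of the 10 members, 8 were past the upper threshold, against 4 of 5 tested with at least 1 CPM in every library, a filter that removes genes near 0 with shNC, 3 with limma on log2 of FPKM plus 1, where the pseudocount compresses low genes, 9 with no filter, and 8 to 9 with 1 library left out. IL1R1, at the threshold, was at 0.98 without shNC replicate 2 and at 0.94 with limma and a pseudocount of 0.1. Of the 3 other family genes tested 1 rose (33.3%), where 9.41% of all genes tested did. With no filter on low counts 6 rose, where 1770 of all 16861 genes tested did. With at least 1 CPM in every library 0 rose, where 756 of 11711 genes did. With limma and a pseudocount of 1, 0 rose, where 430 of 12874 genes did, and with 1 library left out 1 to 2 rose. Of the 21 processing and release genes tested 3 rose (14.3%), where 9.41% of all genes tested did. The number was 5 with no filter, 1 with limma and a pseudocount of 1, and 3 to 5 with 1 library left out (5 without shNC replicate 1). Of the 16 chromosomal neighbours tested 0 rose, where 9.41% of all genes tested did. The number was 1 with at least 1 CPM in every library and 0 to 1 with 1 library left out. The cause of these changes was not tested beyond the filters named.

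Pooled over a group's libraries, IL1A plus IL1B exceeded IL1RN by 271 with shNC and 172 with shNUF2 in FPKM; by counts the values were 177 and 116, and with 1 library left out they were 192 to 485 (485 without shNC replicate 3) and 149 to 191. IL1R1 exceeded IL1R2 by 14.3 and 2.58 in FPKM, by 36.2 and 6.27 in counts, and by 11.2 to 29.6 with 1 shNC library left out (29.6 without shNC replicate 1).

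Over all genes, 1212 were higher and 536 lower, against 1770 and 634 with no filter, 756 and 397 with at least 1 CPM in every library, and 430 and 206 with limma on log2 of FPKM plus 1. The replicate numbers did not pair the libraries, since deviations of same-numbered libraries correlated at 0.02, 0.005 and -0.03, and 2 of 6 libraries were closest to their own number. The fit with a replicate block gave 1207 higher and 536 lower genes, NUF2 at -1.51, and 8 members higher and 0 lower. In the shNC libraries the 4 lowest-count members rest on 1 to 10 reads, which limits the precision of their folds.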
